A study of Mus musculus with 4 samples.

Results

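The genes described are 8 Toll-like receptors (TLRs), Tlr1, Tlr2, Tlr3, Tlr4, Tlr7, Tlr8, Tlr9 and Tlr13, with the lipopolysaccharide co-receptors Cd14 and Ly96, measured in epididymal adipose tissue of obese mice with different diet histories. They were chosen by name as the rows of the expression matrices with these symbols, which made 10 of 24421 genes, and each of the 10 passed the filter on low values that left 14106 genes for testing. All mice were wild-type (WT) C57BL/6J males that received high-fat diet (HFD), and their fat was taken at 24 weeks of age after 14 weeks of HFD in total. In the weight-cycling group (WC1, 2 libraries), HFD began at 8 weeks of age and ran for 8 weeks, was replaced by standard diet for 2 weeks, and was then given for 6 more weeks. In the high-fat control group (Ctrl, 2 libraries), HFD began at 10 weeks of age and ran without a break, so the age at the start of HFD differed between the groups together with the weight loss, and these cannot be told apart. The tissue is whole epididymal fat, a visceral depot in which adipocytes, macrophages, fibroblasts and vessels are sequenced together, so fewer cells of a type and less RNA per cell cannot be told apart. The comparison asks how the receptors stood after weight loss and regain relative to obesity without interruption.

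TLRs are membrane receptors that recognise molecules of microbes and of damaged cells. Some sit at the cell surface, where they bind bacterial lipids and lipoproteins, and others sit in endosomes, where they bind nucleic acids. Most of them signal through the adaptor MyD88 to NF-kB and inflammatory cytokines, whereas Tlr3 uses the adaptor TRIF, which Tlr4 can use as well. In obese fat the receptors are known mainly from macrophages, and adipocytes, fibroblasts and endothelial cells carry some of them.

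The libraries held between 61465029 and 90965297 reads, and 3 reads corresponded to between 0.0345 and 0.0492 CPM (reads scaled to the size of the library), so every receptor was well above the floor. limma was fitted to log2(CPM + 1) of the whole table, p-values were Benjamini-Hochberg adjusted over the 14106 genes, and a gene is said to have fallen or risen where its adjusted p was under 0.05. Each log2 fold change is WC1 minus Ctrl and carries its standard error (SE). Since the labels do not say that the libraries of a group came from separate animals, p-values measure only the spread between these libraries, which may be technical. The tissue markers of adipocytes, such as Adipoq and Plin1, were abundant in all 4 libraries, and their summed level was 4301 and 5242 CPM in Ctrl and 8763 and 11787 CPM in WC1, with 5 of 6 called higher.

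Of the 10 genes, 4 fell in WC1, namely Tlr13, Tlr7, Cd14 and Tlr4, and 0 rose (limma, edgeR and DESeq2 each gave 0, as did an unadjusted p under 0.05 in limma). Tlr13 showed the largest fall, with a mean 54.9% lower in WC1 than in Ctrl, followed by Tlr7 with a mean 43.0% lower. By limma with Benjamini-Hochberg adjustment, 7.71% of all tested genes were called lower and 10.2% were called higher. The libraries of the groups did not overlap for 7 of the 10 genes with WC1 lower and for 1, Tlr3, with WC1 higher, where 36.6% of all tested genes were apart in the first direction and 32.7% in the second. Non-overlap is thus common in these libraries and is weak on its own. The median log2 fold change of the 10 genes was -0.40, beside -0.02 over all tested genes. At an unadjusted p under 0.05 in limma, 6 of the 10 genes were lower, the other two being Tlr2 and Ly96, where 18.9% of all tested genes were lower by that rule.

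**Figure D1:**
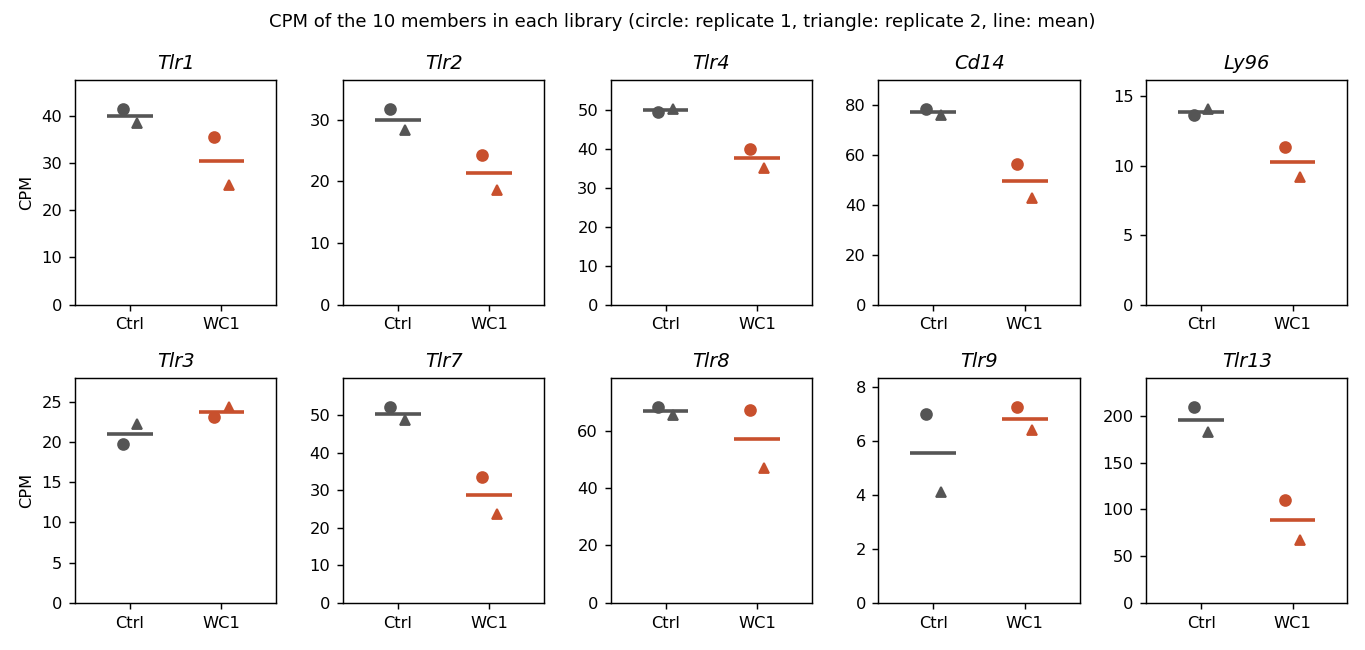
CPM of each of the 10 genes on a linear axis from 0, with cell-surface receptors and co-receptors in the upper row and endosomal receptors in the lower row. Grey points are the 2 Ctrl libraries, orange points the 2 WC1 libraries (circle, replicate 1, triangle, replicate 2), and lines are group means. Both WC1 libraries lie below both Ctrl libraries for 7 genes, and Tlr3 alone lies above.

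Tlr4, the receptor for bacterial lipopolysaccharide, lies at chr4:66827584-66930284 on the plus strand (GENCODE M21, GRCm38) and measured 49.6 and 50.3 CPM in Ctrl and 40.0 and 35.1 CPM in WC1. The Ctrl libraries were nearly equal and both WC1 libraries lay below them. Its log2 fold change was -0.40 ± 0.09 (SE, 95% interval -0.63 to -0.18, limma, Benjamini-Hochberg adjusted p = 0.041). Cd14, a surface protein that hands lipopolysaccharide to the Tlr4 complex, measured 78.4 and 76.0 CPM in Ctrl and 56.4 and 42.8 CPM in WC1. It too was close between the Ctrl libraries and lower in both WC1 libraries, with a log2 fold change of -0.64 ± 0.14 (SE, 95% interval -0.998 to -0.28, limma, Benjamini-Hochberg adjusted p = 0.041). Ly96, the small secreted protein that binds Tlr4 and holds the lipid part of lipopolysaccharide, measured 13.7 and 14.1 CPM in Ctrl and 11.3 and 9.21 CPM in WC1. The groups did not overlap, but the change of -0.41 ± 0.12 (log2, SE) did not pass the threshold in limma (Benjamini-Hochberg adjusted p = 0.081). Without replicate 2 of WC1 the log2 fold change of Ly96 was -0.27, and without replicate 1 of WC1 it was -0.54 and passed (limma, Benjamini-Hochberg adjusted p = 0.015). The adjusted p-values of Tlr4 and Cd14 lay close to the threshold, and the fold change of Ly96 was the same size as that of Tlr4 with a wider error.

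Tlr2 and Tlr1 form a receptor for bacterial lipopeptides at the cell surface. Tlr2 measured 31.7 and 28.3 CPM in Ctrl and 24.2 and 18.6 CPM in WC1, and Tlr1 measured 41.5 and 38.4 CPM in Ctrl and 35.5 and 25.3 CPM in WC1. For both genes the groups did not overlap and replicate 2 of WC1 was the lowest library. The log2 fold change was -0.48 ± 0.15 for Tlr2 and -0.40 ± 0.17 for Tlr1 (SE), and neither passed in limma (Benjamini-Hochberg adjusted p = 0.081 and 0.15). The interval for Tlr1, -0.83 to 0.03, reached 0. Without replicate 2 of WC1 the log2 fold changes were -0.30 for Tlr2 and -0.17 for Tlr1. Without replicate 1 of WC1 they were -0.66 and -0.64, and both then passed (limma, Benjamini-Hochberg adjusted p = 0.0058 and 0.0039). Of the 50-base stretches of the Tlr1 transcripts, 15.3% also occur in Tlr6, so the split of reads between these paralogs is uncertain, and for the other 9 genes the share was 0%. Tlr6, which pairs with Tlr2 in place of Tlr1, measured 13.8 and 13.3 CPM in Ctrl and 11.5 and 9.05 CPM in WC1, a log2 fold change of -0.37 ± 0.14 (SE, limma, Benjamini-Hochberg adjusted p = 0.12).

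Tlr13, the mouse endosomal receptor for bacterial ribosomal RNA, lies at chrX:106143204-106160493 on the plus strand (GENCODE M21, GRCm38) and measured 209 and 183 CPM in Ctrl and 110 and 66.8 CPM in WC1. Both WC1 libraries lay far below Ctrl while differing from each other. These values rested on 14291 and 15925 reads in Ctrl, and on 6715 and 4207 reads in WC1. Its log2 fold change was -1.18 ± 0.24 (SE, 95% interval -1.80 to -0.56, limma, Benjamini-Hochberg adjusted p = 0.036). Tlr7, an endosomal receptor for single-stranded RNA, measured 52.1 and 48.7 CPM in Ctrl and 33.6 and 23.8 CPM in WC1. Both WC1 libraries were lower, with a log2 fold change of -0.81 ± 0.17 (SE, 95% interval -1.24 to -0.38, limma, Benjamini-Hochberg adjusted p = 0.038). The size of both changes moved with the WC1 libraries. The log2 fold change of Tlr13 was -0.82 without replicate 2 of WC1 and -1.53 without replicate 1 of WC1, and that of Tlr7 was -0.57 and -1.05 in the same order. Without Ctrl replicate 1 or Ctrl replicate 2, Tlr13, Tlr7, Cd14 and Tlr4 were no longer called, although their log2 fold changes stayed near those with all libraries, at -1.08 and -1.27 for Tlr13, -0.76 and -0.86 for Tlr7, -0.62 and -0.66 for Cd14, and -0.41 and -0.39 for Tlr4.

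Tlr8, a close relative of Tlr7, lies beside it on the X chromosome (Tlr8 at chrX:167242696-167264329 and Tlr7 at chrX:167304929-167330558, both on the minus strand, GENCODE M21 on GRCm38). It measured 68.1 and 65.5 CPM in Ctrl and 67.0 and 46.9 CPM in WC1, so replicate 1 of WC1 lay between the Ctrl libraries and only replicate 2 was low. The log2 fold change was -0.25 ± 0.17 (SE, 95% interval -0.69 to 0.20, limma, Benjamini-Hochberg adjusted p = 0.35). Without replicate 2 of WC1 it was 0.0058, and without replicate 1 of WC1 it was -0.50. Tlr9, the endosomal receptor for unmethylated DNA, measured 6.99 and 4.09 CPM in Ctrl and 7.24 and 6.42 CPM in WC1. Ctrl replicate 1 lay within the range of WC1 and Ctrl replicate 2 well below it, and the change of 0.29 ± 0.23 (log2, SE, 95% interval -0.31 to 0.90) did not pass in limma (Benjamini-Hochberg adjusted p = 0.41). Without Ctrl replicate 2 the log2 fold change of Tlr9 was -0.031, so its direction rests on that library. Tlr3, the endosomal receptor for double-stranded RNA, measured 19.7 and 22.2 CPM in Ctrl and 23.2 and 24.3 CPM in WC1. Tlr3 overlaps the gene model Gm45542 on the opposite strand, and whether strand was used in counting is not known here, so reads of the latter may be included. Tlr3 was the only gene of the 10 with both WC1 libraries above both Ctrl libraries, and its log2 fold change of 0.17 ± 0.09 (SE, 95% interval -0.07 to 0.41) did not pass in limma (Benjamini-Hochberg adjusted p = 0.24). Without Ctrl replicate 1 the log2 fold change of Tlr3 was 0.090, and without Ctrl replicate 2 it was 0.26.

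**Figure D2:**
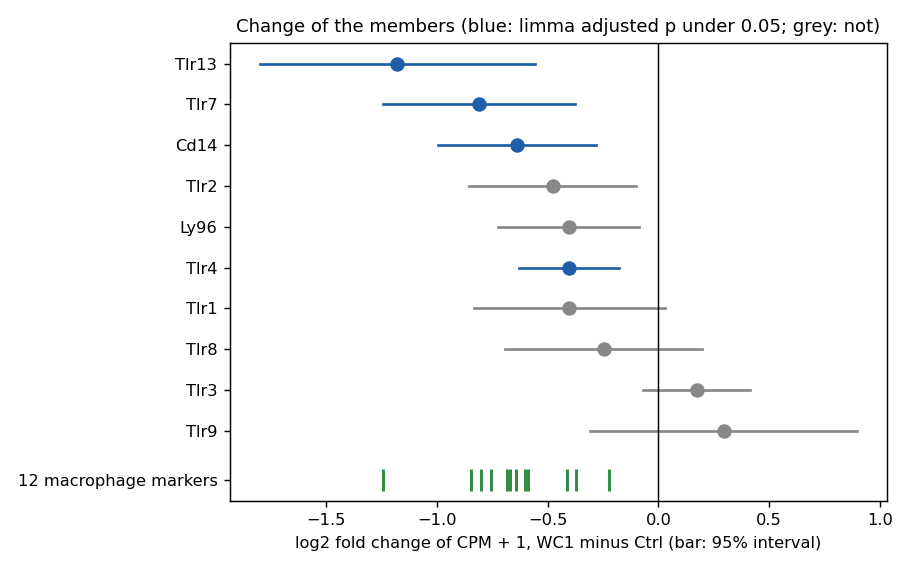
Log2 fold change of CPM + 1 (WC1 minus Ctrl) of the 10 genes, with points for the estimate, bars for the 95% interval from limma, and blue for genes under the adjusted threshold. Green ticks mark the fold changes of the 12 macrophage markers, which range from -1.25 to -0.22. Tlr13 lies near the low end of that range, and Tlr3 and Tlr9 lie above all of it.

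The promoter windows are shown for Tlr13, which fell most, for Tlr9, which had the highest log2 fold change without passing the test, and for Tlr3, the gene with both WC1 libraries above Ctrl. Each window holds 300 bases around the RefSeq start of the gene, most of them before it, on GRCm38.p6. Capitals mark a match, on either strand, to GAGGAA, the purine-rich core bound by the myeloid factor PU.1. The window of Tlr13 is chrX:106143025-106143324 on the plus strand, that of Tlr9 is chr9:106222348-106222647 on the plus strand, and the window of Tlr3 is chr8:45410331-45410630 on the minus strand. Each is written 5′ to 3′ along the strand of the gene.
Tlr13: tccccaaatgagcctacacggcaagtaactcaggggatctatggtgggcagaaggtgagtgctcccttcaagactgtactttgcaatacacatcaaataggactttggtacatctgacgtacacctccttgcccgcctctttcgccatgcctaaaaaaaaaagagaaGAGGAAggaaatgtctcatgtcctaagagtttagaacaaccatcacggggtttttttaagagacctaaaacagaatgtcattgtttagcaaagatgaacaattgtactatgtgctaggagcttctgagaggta
Tlr9: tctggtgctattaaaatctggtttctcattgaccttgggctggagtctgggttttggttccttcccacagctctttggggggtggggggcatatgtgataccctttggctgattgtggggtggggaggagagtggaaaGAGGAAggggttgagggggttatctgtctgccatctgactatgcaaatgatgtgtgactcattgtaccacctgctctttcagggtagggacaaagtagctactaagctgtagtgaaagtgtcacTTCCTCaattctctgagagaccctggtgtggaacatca
Tlr3: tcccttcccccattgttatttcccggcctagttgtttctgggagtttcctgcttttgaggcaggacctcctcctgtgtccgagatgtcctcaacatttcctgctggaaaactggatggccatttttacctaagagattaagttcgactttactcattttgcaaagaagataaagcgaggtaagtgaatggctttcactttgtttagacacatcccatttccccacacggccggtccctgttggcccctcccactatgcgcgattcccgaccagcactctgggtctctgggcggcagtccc
The letters GAGGAA occurred 1 time in the Tlr13 window, 2 times in the Tlr9 window and 0 times in the Tlr3 window. They also occurred 1 time in the window of Tlr8, which did not pass the test, and 0 times in that of Tlr2, and of the 2 windows of Tlr1 1 held a match. Of all 32851 promoter windows of this length, 28.3% held the letters. The core of the interferon-stimulated response element occurred in 0 of the 7 windows of these genes and in 3.44% of all windows. Windows were matched for 6 of the 10 genes and not for Tlr4, Tlr7, Cd14 and Ly96.

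Levels of different genes were compared only as TPM, which takes the length of the transcript into account. In Ctrl the order began with Tlr13 at 93.7 ± 8.12 and Cd14 at 89.3 ± 1.27 TPM (SD, n = 2), whose libraries overlapped. Ly96 at 44.3 ± 1.34 and Tlr8 at 40.6 ± 0.83 TPM came next without overlap. The longest annotated transcript of Ly96 has 666 bases, against 4060 for Tlr13. Tlr1, Tlr7 and Tlr4 lay at 26.5, 25.3 and 24.9 TPM, and neighbours among them overlapped. Tlr2 followed at 20.2 ± 1.49, Tlr3 at 9.31 ± 0.85 and Tlr9 at 3.06 ± 1.11 TPM, each apart from its neighbours.

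In WC1 the order of the means changed at the top. Cd14 stood at 63.1 ± 10.9 TPM, Tlr13 at 46.5 ± 15.1, Tlr8 at 38.1 ± 8.70 and Ly96 at 36.2 ± 4.56 TPM (SD, n = 2), and each of these overlapped the next. Within each WC1 library Cd14 was highest and Tlr13 was next, and Cd14 also lay above Tlr8 and Ly96 without overlap. Cd14 already stood above Tlr13 in Ctrl replicate 2, at 88.4 and 88.0 TPM. In Ctrl replicate 1 Tlr13 was higher, at 99.5 against 90.2 TPM, so the change at the top rests on that library. Tlr1 at 21.8 and Tlr4 at 20.7 TPM overlapped, as did Tlr2 and Tlr7, both at 15.8 TPM. Tlr3 at 11.6 and Tlr9 at 4.16 TPM were again the lowest. The summed TPM of the 10 genes was 386 and 369 in Ctrl and 310 and 238 in WC1. Tlr13 was the TLR with the highest TPM in each of the 4 libraries and made up 39.5% and 37.4% of the summed TPM of the 8 TLRs in Ctrl and 28.6% and 24.0% in WC1. The endosomal receptors Tlr3, Tlr7, Tlr8, Tlr9 and Tlr13 together held 71.1% and 70.1% of it in Ctrl and 67.6% and 65.1% in WC1, and the groups did not overlap in either share.

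**Figure D3:**
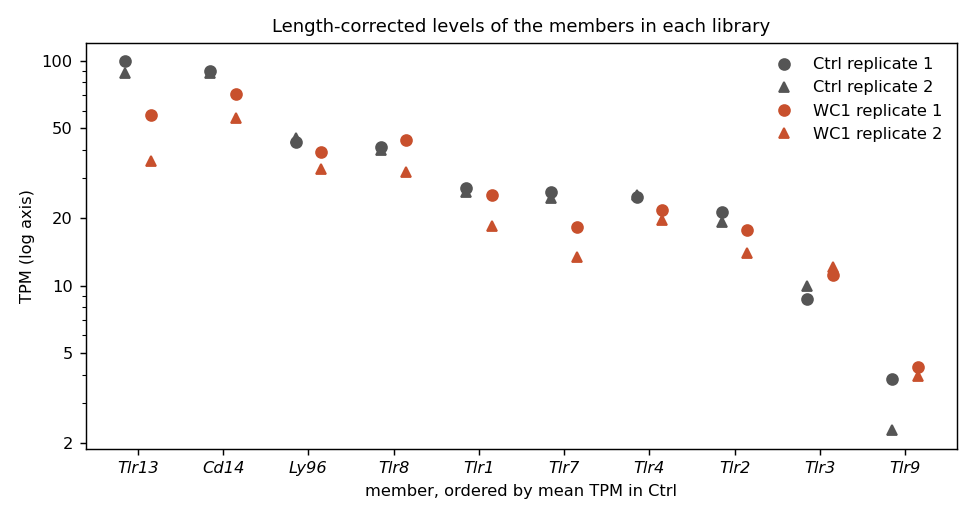
TPM of the 10 genes in each library on a log axis, ordered by the Ctrl mean, with Ctrl in grey and WC1 in orange (circle, replicate 1, triangle, replicate 2). Tlr13 and Cd14 lead in Ctrl at 93.7 and 89.3 TPM, and in WC1 each of the 4 highest genes overlaps its neighbour in the order.

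Partners within a receptor, and the related receptors Tlr8 and Tlr7, were compared by their TPM ratio in each library, with an exact two-sided permutation test in which 2 libraries against 2 cannot give a p below 0.333. The ratio of Ly96 to Tlr4 was 1.76 and 1.79 in Ctrl and 1.82 and 1.68 in WC1, so the groups overlapped (log2 difference -0.02, exact permutation p = 1). The ratio of Cd14 to Tlr4 was 3.66 and 3.50 in Ctrl and 3.26 and 2.82 in WC1, lower in both WC1 libraries (log2 difference -0.24, exact permutation p = 0.333). The ratio of Tlr1 to Tlr2 was 1.27 and 1.36 in Ctrl and 1.43 and 1.31 in WC1 and overlapped (log2 difference 0.06, exact permutation p = 0.667). The ratio of Tlr8 to Tlr7 was 1.59 and 1.63 in Ctrl and 2.42 and 2.39 in WC1, a log2 difference of 0.58 with libraries of a group almost equal (exact permutation p = 0.333). Over these 4 ratios no p could fall under 0.05 in this design.

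Macrophage markers moved in the same direction as most of the receptors. All 12 of 12 markers, among them Adgre1, Csf1r, Cd68, Mertk, C1qa and Lyz2, had a log2 fold change below 0, from -1.25 to -0.22, 11 had both WC1 libraries below both Ctrl libraries, and 5 were called lower. Their summed level was 13132 and 12048 CPM in Ctrl and 7983 and 5646 CPM in WC1, and none was at 0. Lyz2 made up the largest part of each sum and had the largest fall, and the median log2 fold change of the 12 markers was -0.66. As with 9 of the 10 receptor genes, their sum was lower in replicate 2 of WC1 than in replicate 1. The fall of Tlr13 was larger than that of 11 of the 12 markers and that of Tlr7 was larger than that of 10. Cd14 lay among the markers, with a larger fall than 5 of them. The part of the macrophage level in the changes of the receptors was not tested, and the values relative to it follow.

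Expressed relative to the mean log2(CPM + 1) of the 12 macrophage markers in the same library, Cd14 was level, at -2.44 and -2.39 in Ctrl and -2.43 and -2.38 in WC1. Tlr7 stood at -3.02 in both Ctrl libraries and at -3.16 and -3.20 in WC1, a difference of -0.16 on the log2 scale. Tlr13 was still lower in both WC1 libraries, at -1.04 and -1.13 in Ctrl and -1.48 and -1.75 in WC1. This difference of -0.53 ± 0.25 (log2, SE) did not pass in limma (Benjamini-Hochberg adjusted p = 0.060). Tlr4, Tlr2, Tlr1, Tlr8 and Ly96 were higher relative to the markers in both WC1 libraries, with Tlr8 at -2.64 and -2.60 in Ctrl and -2.18 and -2.25 in WC1. Tlr3 went from -4.38 and -4.12 to -3.68 and -3.17 and Tlr9 from -5.75 and -6.31 to -5.23 and -4.94, and these 2 were the genes called higher in limma (log2 difference 0.83, Benjamini-Hochberg adjusted p = 0.016, and 0.95, Benjamini-Hochberg adjusted p = 0.012), while 0 of the 10 were called lower. On this scale 48.8% of all tested genes were called higher and 0.907% lower. The subtraction puts the same term of a library into every gene, and limma then moderated the variance as if there were 28212 degrees of freedom, against 4.99 without the subtraction, although there were 4 libraries. The p-values on this scale, that of Tlr13 included, are therefore not read as tests, and the values are given as a description.

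**Figure D4:**
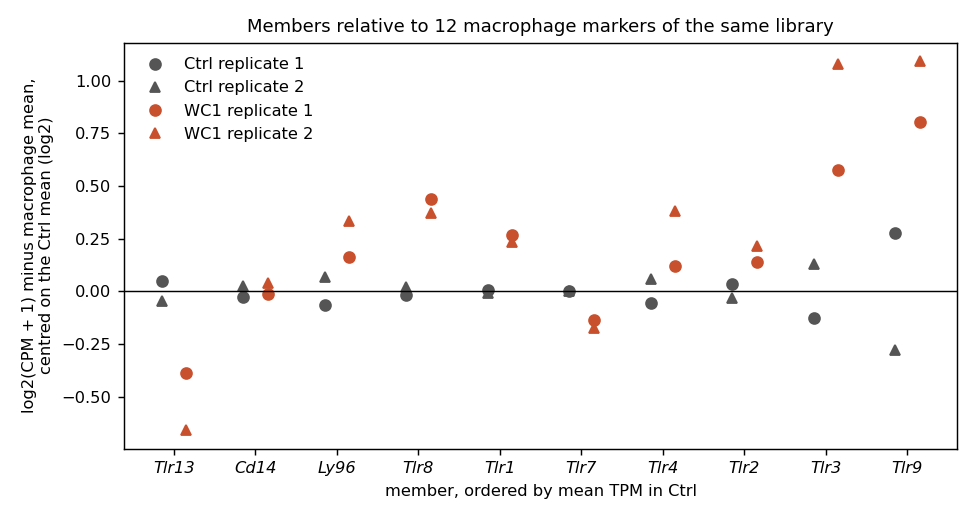
Log2(CPM + 1) of each gene minus the mean of 12 macrophage markers in the same library, centred on the Ctrl mean of the gene (log2 units), with Ctrl in grey and WC1 in orange. Cd14 lies close to 0 in all 4 libraries, Tlr13 and Tlr7 lie below 0 in WC1, and Tlr3 and Tlr9 lie highest in WC1.

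Markers of other cell types that can carry TLRs moved in several directions, and their part in the receptor changes was not tested. Endothelial markers summed to 346 and 389 CPM in Ctrl and 654 and 834 CPM in WC1, and 3 of 5 were called higher. Fibroblast markers summed to 2607 and 2664 CPM in Ctrl and 2180 and 2178 CPM in WC1, with 2 of 5, Pdgfra and Dcn, called lower. Dcn, at 1646 and 1676 CPM in Ctrl and 1147 and 1046 CPM in WC1, was the most abundant of them in each library, and Col15a1 and Dpp4 had both WC1 libraries above Ctrl without passing (log2 fold changes 0.28 and 0.27). Mast cell markers summed to 553 and 613 CPM in Ctrl and 83.2 and 65.3 CPM in WC1, with 5 of 6 called lower. B cell markers, of interest for Tlr9, summed to 4.47 and 2.59 CPM in Ctrl and 7.47 and 26.9 CPM in WC1, with 1 of 4 tested called higher and Pax5 at 0 in Ctrl replicate 2. Plasmacytoid dendritic cell markers, of interest for Tlr7 and Tlr9, summed to between 2.29 and 3.99 CPM in the 4 libraries with overlapping groups, and Klk1 was at 0 in WC1 replicate 1. Conventional dendritic cell markers summed to between 25.1 and 32.3 CPM, with 2 of 6 called lower and 1 higher. Monocyte markers summed to 82.8 and 74.1 CPM in Ctrl and 95.3 and 110 CPM in WC1, with Ccr2 called higher and Plac8 lower of 5. Neutrophil markers summed to 14.0 and 15.5 CPM in Ctrl and 12.1 and 11.2 CPM in WC1, lower in both WC1 libraries, with Retnlg at 0 in both WC1 libraries. Csf3r made up most of each sum, Retnlg, Cxcr2 and Mmp8 stayed under 1 CPM, and Ly6g was not in the matrix. T and NK cell markers summed to between 9.50 and 16.6 CPM and mesothelial markers to between 56.5 and 149 CPM, with overlapping groups. For the plasmacytoid dendritic cell, neutrophil, T and NK cell and mesothelial lists limma, edgeR and DESeq2 called 0 genes, and at an unadjusted p under 0.05 in limma only the T and NK cell list had 1, Klrb1c, which was lower.

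Tlr5, Tlr11 and Tlr12 had few reads in this tissue. Tlr5, the flagellin receptor, measured 4.49 and 4.16 CPM in Ctrl and 6.42 and 6.08 CPM in WC1, and its change of 0.45 ± 0.11 (log2, SE) did not pass in limma (Benjamini-Hochberg adjusted p = 0.051). Tlr11 measured 1.32 and 1.67 CPM in Ctrl and 1.97 and 1.94 CPM in WC1 (log2 fold change 0.25, limma, Benjamini-Hochberg adjusted p = 0.24). Tlr12 was at 0.205 and 0.161 CPM in Ctrl and 0.328 and 0.334 CPM in WC1 and was not tested. Thus the TLRs with both WC1 libraries above Ctrl were Tlr3, Tlr5, Tlr11 and Tlr12.

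Genes of proteins that assist the receptors lay in both directions. Lbp, the plasma protein that carries lipopolysaccharide to Cd14, rose from 239 and 270 CPM to 456 and 642 CPM, a log2 fold change of 1.09 ± 0.18 (SE, limma, Benjamini-Hochberg adjusted p = 0.025), while Cd14 itself fell. Tril, an accessory protein of Tlr4 and Tlr3, rose from 29.4 and 27.0 CPM to 38.0 and 36.7 CPM (log2 fold change 0.39, limma, Benjamini-Hochberg adjusted p = 0.036). Ly86, the Ly96-like partner of Cd180, fell from 69.5 and 70.9 CPM to 53.5 and 42.3 CPM (log2 fold change -0.55, limma, Benjamini-Hochberg adjusted p = 0.043). Cd180 itself overlapped, at 111 and 105 CPM in Ctrl and 109 and 77.2 CPM in WC1. Lgmn, a protease that processes endosomal TLRs, was also called lower (log2 fold change -0.80, limma, Benjamini-Hochberg adjusted p = 0.049). Unc93b1, the chaperone that takes endosomal TLRs to their compartment, measured 473 and 468 CPM in Ctrl and 400 and 343 CPM in WC1, and its change of -0.34 ± 0.11 (log2, SE) did not pass (limma, Benjamini-Hochberg adjusted p = 0.081). Of the 16 tested genes of this list, 2 were called lower and 2 higher, with a median log2 fold change of -0.25. Of all tested genes, 7.71% were called lower and 10.2% higher.

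Among adaptors and kinases, 3 of 24 tested genes were called lower and 1 higher, where 7.71% and 10.2% of all tested genes were. Their median log2 fold change was -0.15. Myd88, the adaptor of most TLRs, measured 58.3 and 57.9 CPM in Ctrl and 48.0 and 43.3 CPM in WC1 and fell (log2 fold change -0.34 ± 0.08, SE, limma, Benjamini-Hochberg adjusted p = 0.046). Ikbkg, the regulatory subunit of the kinase complex that activates NF-kB, fell from 74.3 and 65.8 CPM to 50.6 and 49.5 CPM, and Tbk1, the kinase of the interferon branch, was called lower with a log2 fold change of -0.36. Irak2, a kinase of the MyD88 complex, rose from 57.0 and 62.1 CPM to 78.5 and 75.5 CPM (log2 fold change 0.37, limma, Benjamini-Hochberg adjusted p = 0.037). The other sorting and bridging adaptors did not pass, with log2 fold changes of -0.13 for Tirap, -0.29 for Ticam1, the gene of TRIF, and -0.09 for Ticam2.

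The transcription factors that the receptors activate had no call, with 0 of 12 called in either direction by limma, and the median log2 fold change was 0.04. At an unadjusted p under 0.05 in limma 2 were lower and 1 higher, edgeR called 0 lower and 1 higher, and DESeq2 called 2 lower and 1 higher. The smallest p-values belonged to Irf7 (log2 fold change 0.32, limma, Benjamini-Hochberg adjusted p = 0.057), Jun (log2 fold change -0.28, Benjamini-Hochberg adjusted p = 0.072) and Irf5 (log2 fold change -0.47, Benjamini-Hochberg adjusted p = 0.085). Of 13 tested negative regulators, 2 were called lower and 0 higher by limma, with a median log2 fold change of -0.26 (edgeR gave 1 and 0, DESeq2 5 and 2, and an unadjusted p under 0.05 in limma 9 and 2). By limma, 7.71% of all tested genes were called lower and 10.2% higher. The 2 called lower were the phosphatases Inpp5d, which fell from 137 and 138 CPM to 96.5 and 78.2 CPM, and Ptpn6, which fell from 125 and 124 CPM to 97.8 and 79.2 CPM. Both are genes of blood cells in general. Tnip1, an inhibitor of NF-kB signals, lay the other way, at 77.2 and 84.9 CPM in Ctrl and 97.0 and 104 CPM in WC1, and its log2 fold change of 0.31 did not pass (limma, Benjamini-Hochberg adjusted p = 0.061).

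Among 22 tested genes that TLR signals induce, 5 were called lower and 1 higher, where 7.71% and 10.2% of all tested genes were. Their median log2 fold change was -0.27. The chemokine Ccl3 fell from 21.9 and 19.3 CPM to 5.15 and 2.97 CPM, a log2 fold change of -2.13 ± 0.23 (SE, limma, Benjamini-Hochberg adjusted p = 0.014). The chemokines Ccl4 and Ccl5, the adhesion molecule Icam1 and the cytokine Il10 were the other genes called lower, with log2 fold changes of -1.33, -0.85, -0.48 and -0.74. Nos2, inducible nitric oxide synthase, moved against them, from 4.23 and 4.70 CPM to 9.54 and 12.3 CPM (log2 fold change 1.12, limma, Benjamini-Hochberg adjusted p = 0.019). Tnf had a log2 fold change of -0.42 that did not pass (limma, Benjamini-Hochberg adjusted p = 0.072), and Il6 and Ifnb1 were too rare to be tested. Of 11 tested proteins reported to act as endogenous ligands, 3 were called lower and 3 higher, beside the same shares of all tested genes. Ahsg, which can carry fatty acids to Tlr4, fell from 7.78 and 7.62 CPM to 0.803 and 1.78 CPM, and the matrix proteins Vcan and Dcn fell with log2 fold changes of -0.87 and -0.60. The matrix protein Tnc rose from 23.4 and 26.6 CPM to 68.2 and 50.1 CPM, and Saa3 and S100a8 rose with log2 fold changes of 1.67 and 1.27. S100a9 lay lower in both WC1 libraries, at 0.658 and 0.356 CPM in Ctrl and 0.0983 and 0.159 CPM in WC1. It was too rare to be tested.

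Over the 104 genes of the 6 pathway lists, 98 were tested, 15 were called lower and 7 higher, with a median log2 fold change of -0.21. The shares called were thus above the 7.71% of all tested genes in the lower direction and below the 10.2% in the higher direction. In the TPM matrix, which shifted the median of all genes by 0.12 on the log2 scale, the split of the pathway genes was 8 lower and 10 higher, where 4.13% of all tested genes were called lower and 14.6% higher.

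**Figure D5:**
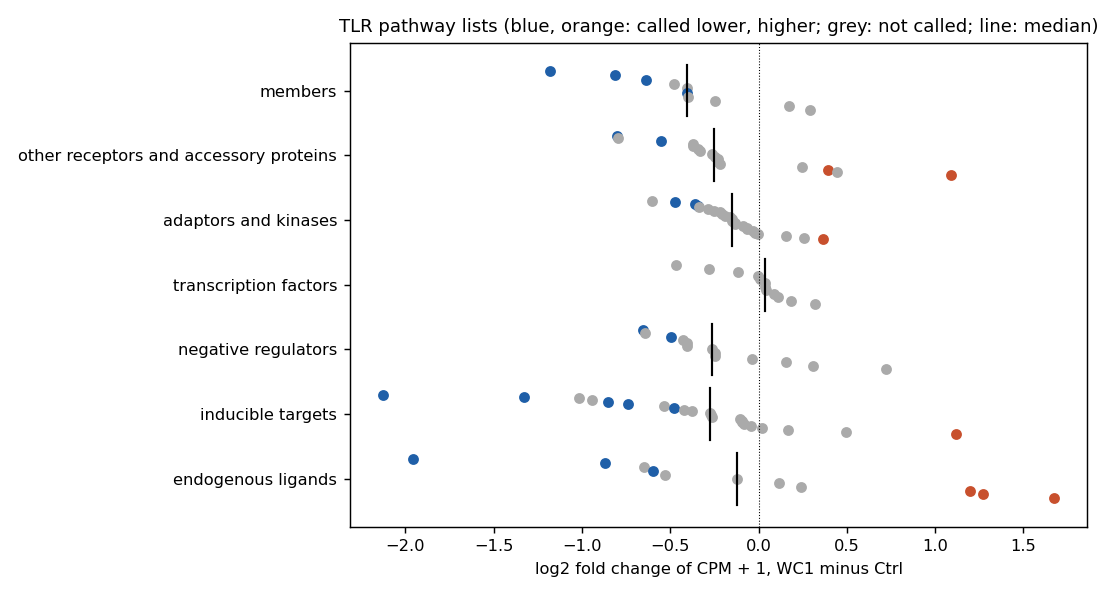
Log2 fold change of CPM + 1 (WC1 minus Ctrl) of the tested genes of each TLR list, 1 point per gene, blue for called lower, orange for called higher and grey for not called, with a black line at the median of the list. The 10 receptors and co-receptors have the lowest median, -0.40, and the transcription factors lie around 0.

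The calls of the receptors depended on the measure and the tool. On TPM 1 of the 10 genes, Tlr13, was called lower (log2 fold change -1.03, limma, Benjamini-Hochberg adjusted p = 0.046), where 4.13% of all tested genes were called lower. Tlr7, Cd14 and Tlr4 had log2 fold changes of -0.66, -0.50 and -0.26 there, with adjusted p-values of 0.051, 0.059 and 0.088 in that limma fit. With the median of all genes on TPM subtracted the log2 fold changes were -0.76, -0.61 and -0.36. On TPM the log2 fold change was -0.11 for Tlr8 and 0.29 for Tlr3, and neither passed. On the recovered reads edgeR called 4 of the 10 lower, with 7.14% of all tested genes called lower, and DESeq2 called 6 lower, with 12.3%. The genes that DESeq2 added were Tlr2 and Ly96 (DESeq2, adjusted p = 0.028 and 0.049). The directions of all 10 genes were kept under each scaling and tool, and those of Tlr8 and Tlr9 were lost with a library left out.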

How the data were processed

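Poly(A) RNA of epididymal adipose tissue was sequenced from directional libraries, and 4 libraries (2 Ctrl, 2 WC1) were grouped by their titles. The submitters' processing notes name fastp, HISAT2, StringTie and the mouse build mm10. The sources used here do not give versions, the read counter, its settings or the annotation. The authors deposited 2 matrices of 24421 gene symbols. The first is a deposited signal proportional to read counts, called CPM, whose columns sum to 97.6% to 105% of the sum that plain CPM would have. A rescaling of the library sizes before deposit is inferred from these sums and is not stated in the sources used here. All values (100%) were whole multiples of 1 read within 0.01 read, which gave back the reads. The second holds deposited TPM values, corrected by the authors for transcript length. The labels give 0 columns that were left unused. Depth was 61465029 to 90965297 reads, and values at 3 reads or fewer were treated as the floor, for counting error only.

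The 14106 genes that reached 0.5 CPM in 2 or more libraries were tested. The model was fitted in R 4.3.3 with limma 3.58.1 and an abundance trend on log2(CPM + 1), two-sided, WC1 minus Ctrl, Benjamini-Hochberg adjusted over all tested genes. Such fold changes understate those of rare genes. edgeR 4.0.16 (quasi-likelihood) and DESeq2 1.42.0 were run on the recovered reads, and ratios were tested by exact permutation in scipy 1.17.1. The scripts were tested on simulated data. Alternatives were other pseudocounts (0.5, 0.1), filters, scalings, TPM, a replicate block, and leaving out each library. Symbols were matched to GENCODE M21 on GRCm38 (23376 of 24421), and promoter windows came from RefSeq GRCm38.p6. Genes were named as the 10 receptors and co-receptors, 12 partners by role, and the 3 genes with the smallest limma p in each pathway list among those with a mean of at least 1 CPM. Lgmn, Tbk1, Tnf, Ccl4, Ccl5, Il10, Il6, Ifnb1, Dcn, Saa3, S100a8 and S100a9 fall outside this rule and were named after their values were seen. The members and lists were chosen with earlier results of these data known. The single values of 1 marker gene are not reported here.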

Additional observations from a re-analysis of the deposited data

How the results depend on the processing

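With 2 libraries a group, the spread between libraries limits every call, and fits without 1 library assume that the lone library varies like the other group. Of the 150 values that the 10 receptors and co-receptors took over 15 alternatives, 126 kept direction and side of the threshold, 15 no longer passed, 7 newly passed and 2 reversed: Tlr8 at 0.0058 without WC1 replicate 2 (range with a library left out -0.50 to 0.0058) and Tlr9 at -0.031 without Ctrl replicate 2 (range -0.031 to 0.62). The count called lower, 4, became 0 without the filter on low values, where 2.93% of all tested genes were called lower. It became 1 on TPM, where 4.13% were. With a library left out the count moved with that of all tested genes, given below. The count called higher was 0 under each of the 15. Of all 14106 tested genes, 4 and 6 were called lower without Ctrl replicate 1 and Ctrl replicate 2, 2748 (19.5%) without WC1 replicate 1 and 1231 (8.73%) without WC1 replicate 2, against 1088 with all libraries.

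Of the pathway genes, the 15 called lower became 6 without the filter, 8 on TPM, 27 by DESeq2 and 0 to 40 with a library left out. The 7 called higher became 2 without the filter, 11 by DESeq2 and 0 to 10 with a library left out. Without the filter, 2.93% of all tested genes were called lower and 4.35% higher, and by DESeq2 12.3% and 15.1%. The main fit had 7.71% and 10.2%, so the rise to 11 by DESeq2 came with a rise over all tested genes. With a library left out the calls over all tested genes moved as well, so these pathway counts are not read as gains or losses. Relative to the macrophage markers, the 2 called higher stayed 2 with the first 6 or the last 6 markers. Of all tested genes, 32.7% and 64.3% were called higher in these 2 fits. The 0 called lower became 1 with the first 6 markers, where 1.04% of all tested genes were called lower. On this scale the count called higher also moved with that of all tested genes when a library was left out. The cause of these changes was not tested. The log2 differences of the ratios ranged, with a library left out, from -0.34 to -0.13 for Cd14 to Tlr4, from -0.08 to 0.03 for Ly96 to Tlr4, from -0.0028 to 0.12 for Tlr1 to Tlr2 and from 0.56 to 0.60 for Tlr8 to Tlr7.

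The labels do not say that equal replicate numbers pair the libraries, and the differences between replicates 1 and 2 correlated across 14106 genes with r = 0.19, with 2 pairs only. With a replicate block, 5 of the 10 genes and 23 pathway genes were called lower, where 1497 (10.6%) of all tested genes were. Tlr2 was the gene of the 10 that was added (adjusted p = 0.028 in limma). Relative to the macrophage markers, 1 of the 10 was called lower with that block, where 1.04% of all tested genes were.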

Other observations

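Outside the TLR family, 15 other sensors of microbial or misplaced nucleic acids and cell wall parts were tested, a list chosen after the values of the TLRs were seen. Of these, 2 were called lower and 0 higher by limma, with a median log2 fold change of -0.22. edgeR gave 2 and 0, DESeq2 gave 3 and 1, and an unadjusted p under 0.05 in limma gave 3 and 1. Of all tested genes, 7.71% were called lower by limma, 7.14% by edgeR and 12.3% by DESeq2, and 18.9% were lower at an unadjusted p under 0.05 in limma, so the counts of the sensors lie near those of all genes. Aim2, a sensor of DNA in the cytosol that forms an inflammasome, measured 24.1 and 23.7 CPM in Ctrl and 16.6 and 15.1 CPM in WC1 (log2 fold change -0.56; limma, Benjamini-Hochberg adjusted p = 0.024). Tmem173, the STING adaptor of the cytosolic DNA pathway, measured 48.6 and 48.7 CPM in Ctrl and 38.0 and 34.9 CPM in WC1 (log2 fold change -0.41; limma, Benjamini-Hochberg adjusted p = 0.030). Both had Ctrl libraries that were nearly equal and WC1 libraries below them. Ddx58, the gene of the RNA sensor RIG-I, differed little, with a log2 fold change of 0.03, at 36.7 and 35.5 CPM in Ctrl and 35.8 and 38.3 CPM in WC1. Nod2, a sensor of bacterial cell wall fragments, lay higher in both WC1 libraries without passing the threshold (log2 fold change 0.45; limma, Benjamini-Hochberg adjusted p = 0.055), and Nlrp3, an inflammasome sensor, lay lower without passing (log2 fold change -0.72; limma, Benjamini-Hochberg adjusted p = 0.096).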
